A study of Mus musculus with 14 samples.

Results

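Fibroblasts of Col3a1 knockout mice, which make no type III procollagen chain of their own, were transfected with either the Tsk2 allele of Col3a1 or the wild-type (WT) allele, and their RNA was compared on whole-genome arrays. The 6 samples whose titles name a transfection were taken from the 14 samples of the study, 3 with Tsk2 Col3a1 (numbered 1, 2 and 3) and 3 with WT Col3a1 (numbered 1, 3A and 3B). All 6 share the Col3a1 knockout, so by their labels the groups differ in which allele was put back and not in its presence. Whether the cultures also differed in other ways, such as the amount of the allele, is not known. The other 8 samples are whole skin of 4-week-old female mice, 4 Tsk2 and 4 WT, and serve here only to set the fibroblast differences beside those in skin. Tsk2 mice have tight skin, and by the study's title their mutation lies in the part of Col3a1 that encodes the N-terminal propeptide. The labels name the cells only as fibroblasts, and the tissue they came from, the promoter that drove the transfected gene, the time after transfection and the relation of WT 3A to WT 3B are not stated there. Untransfected knockout cells were not analysed here. Whether samples of a group were separate cultures is also not stated, so p-values rest on a spread between samples that may be technical.

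Type III collagen is a homotrimeric fibrillar collagen that forms fibrils together with type I collagen in skin, vessels and other soft tissues, and its N-terminal propeptide is cut off outside the cell. Fibroblasts make most of this matrix, and as contractile myofibroblasts they also make smooth muscle actin and more matrix, with transforming growth factor beta (TGF-beta) as the best known inducer. Fibroblasts are also sentinel cells: sensors of foreign nucleic acids induce type I interferon in them, and secreted interferon then switches on many antiviral genes.

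Every value is a log2 ratio of a sample's RNA over a universal mouse reference RNA hybridised to the same 2-colour array, so 0 means equal to the reference, and a difference of 1 between groups is a change of 2-fold. The 41174 probes gave 19532 genes, each the mean of its probes on each array. Between 39.8% and 42.7% of the probe values on each of the 6 arrays were values that occurred 50 times or more on that array, which was read as a mark of probes too dim to measure. Precision is limited by the number of arrays, and spot brightness was not used here. A gene was called when its p-value by limma, adjusted over all genes by the Benjamini-Hochberg method, was under 0.05. The same test was also run over the 7161 genes that had no repeated value on any probe of any of the 6 arrays, here called the restricted test. A repeated value on 1 array was enough to remove a gene, so the filter can act through either group alone: 1469 genes had repeated values in Tsk2 samples only, 1225 in WT samples only and 9677 in both. Dlx1 and Ott, both called over all genes, were removed by the Tsk2 samples alone. Over these 7161 genes, the difference between arrays had its smallest standard deviation between WT 3A and WT 3B, at 0.22, against 0.25 and 0.26 between WT 1 and each of them. Tsk2 1 stood apart from Tsk2 2 (0.35) and Tsk2 3 (0.37), which were 0.26 apart. WT 1 lay as near to Tsk2 3 (0.27) and Tsk2 2 (0.29) as arrays of 1 group lay to each other.

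Values of the Col3a1 probes overlapped between the groups. The mean of the 3 Col3a1 probes was -2.20, -2.32 and -2.23 in Tsk2 samples 1, 2 and 3 and -2.30, -2.39 and -2.24 in WT samples 1, 3A and 3B. The difference was 0.06 ± 0.09 (SE, n = 3 per group; adjusted p = 0.805 by limma). The 3 probes differed between the groups by -0.02, -0.14 and 0.34, and the one with a difference of -0.14 held repeated values on all 6 arrays. Where these probes lie relative to the transfected sequence and to the knockout is not known, so they check neither the labels nor the amount of either allele.

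Over all genes, 10 of 19532 passed the threshold, which is 0.0512% of them, with 7 lower and 3 higher in cells with the Tsk2 allele. At an unadjusted p under 0.05 there were 2186. In the restricted test 60 genes fell with the Tsk2 allele, 0.838% of the 7161 tested, and 49 rose, 0.684%. The groups did not overlap in any of these 109 genes, but genes chosen by a small p seldom overlap, so this adds no support. Over the 7161 genes 28.9% did not overlap, 1124 lower and 942 higher with Tsk2. Over all genes 10.2% lay lower and 9.81% higher without overlap. The 60 lower genes reached from a difference of -0.41 to -3.11, with 22 beyond 1, and the 49 higher genes from 0.43 to 1.52, with 8 beyond 1. In 45 of the 60 and 38 of the 49, WT 1 was the WT sample nearest to the Tsk2 samples. Both counts depended on the samples: without WT 1 the restricted test called 160 genes, and without Tsk2 1 or Tsk2 3 it called 50 and 39. Without Tsk2 2, WT 3A or WT 3B it called 6, 8 and 6, and with WT 3A and 3B averaged into 1 sample 6, which were Acod1, Ccl5, Cxcl10, Il33, Oasl1 and Rsad2.

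**Figure D1:**
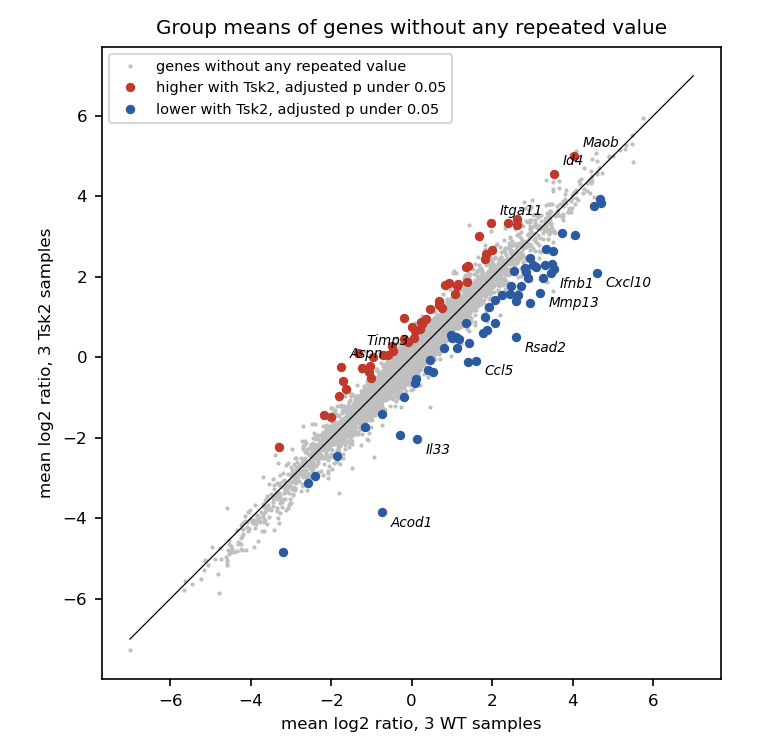
Mean log2 ratio over the 3 WT samples (horizontal axis) and over the 3 Tsk2 samples (vertical axis) for the 7161 genes without any repeated value, shown as grey points. The 60 genes that fell in the restricted test (blue) and the 49 that rose (red) are coloured, the line marks equal means, and Acod1 and Cxcl10 lie farthest below it.

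Interferon response genes made up 11 of the 60 genes that fell in the restricted test, more than any other of 56 gene lists. Cxcl10, a chemokine that draws activated T cells and is induced by interferons, was at 2.14, 2.0 and 2.17 in Tsk2 samples 1, 2 and 3 and at 4.49, 4.63 and 4.70 in WT samples 1, 3A and 3B. No Tsk2 sample came within 2 log2 units of a WT sample, and Cxcl10 was 5.66-fold lower (difference -2.50 ± 0.10, SE; adjusted p = 0.00934 by limma over all genes). Rsad2, which encodes the antiviral enzyme viperin, was at 0.18, 0.56 and 0.77 against 2.62, 2.53 and 2.65, a difference of -2.10 ± 0.17 (SE), and its 3 probes gave -2.02, -2.20 and -2.07. Oasl1, an oligoadenylate synthetase-like protein that restrains translation of Irf7 in mice, was at 0.75, 0.84 and 0.98 against 2.01, 2.10 and 2.13. Cmpk2, a mitochondrial nucleotide kinase encoded next to Rsad2, was at 0.87, 0.93 and 1.18 against 2.59, 2.41 and 2.45, with 3 of its 12 probe values repeated. Each of these 3 genes had an adjusted p of 0.0484 by limma over all genes, and in each the WT samples lay close together and all above the Tsk2 samples. Cells of one kind becoming fewer and each cell holding less RNA cannot be told apart in such pooled RNA.

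**Figure D2:**
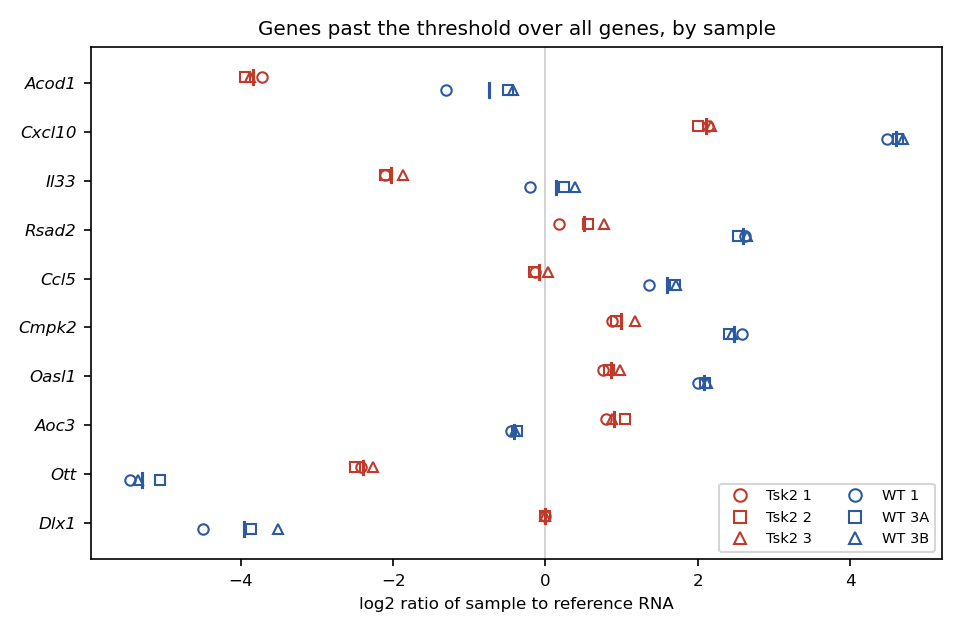
Log2 ratio to the reference RNA (horizontal axis) in each of the 6 samples for the 10 genes that passed the threshold over all genes, with Tsk2 samples in red, WT samples in blue and the group mean as a bar. Marker shapes tell samples apart and do not pair them. The groups do not overlap in any of the 10 genes, and Dlx1 is at exactly 0 in all 3 Tsk2 samples.

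The promoters of these genes are shown because the letters of the interferon-stimulated response element, a promoter site of many interferon-induced genes, can be looked for in them. RefSeq windows of 250 bases before the transcription start (assembly GRCm38.p6) were searched on both strands for GAAANNGAAA. In this and the later searches a gene with several windows was counted once, if any of them matched. Of the 60 genes that fell in the restricted test 48 had a window, and 12 of these 48 (25%) held the letters, among them Cxcl10, Rsad2 and Ifit1. They were held by 3 of 39 (7.69%) of the genes that rose, by 205 of 5749 (3.57%) of the genes without repeated values and by 936 of 27025 (3.46%) of all genes with a window. The following stretches run 5′ to 3′ along the gene's strand with the matching letters in capitals, at chr5:92349053-92349139 (minus strand), chr12:26456523-26456612 (minus strand) and chr19:34640745-34640834 (plus strand), and Ifit1 holds 2 matches.
Cxcl10: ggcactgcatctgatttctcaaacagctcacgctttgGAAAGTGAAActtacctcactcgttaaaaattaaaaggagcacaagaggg
Rsad2: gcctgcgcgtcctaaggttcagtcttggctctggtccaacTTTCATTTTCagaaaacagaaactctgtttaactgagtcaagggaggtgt
Ifit1: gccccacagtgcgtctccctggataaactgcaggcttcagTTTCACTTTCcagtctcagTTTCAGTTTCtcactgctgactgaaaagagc
The Cxcl10 match lies 204 to 213 bases before the start, the Rsad2 match 111 to 120 bases, and the Ifit1 matches at 95 to 104 and 76 to 85 bases. A match describes the letters only, and no match in Acod1, Cmpk2 or Oasl1 says only that these letters are not in these windows.

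The wider interferon response moved the same way. Of 41 listed genes 39 were measured and 37 lay lower with the Tsk2 allele, with a median difference of -0.40 beside 0.00 over all genes. Of the 39, 27 had an unadjusted p under 0.05 by limma, beside 2186 of all 19532 genes. Members that fell over all genes numbered 4, those above. In the restricted test 11 of the 31 members without repeated values fell, beside 0.838% of all genes tested there. In 28 of the 39 the groups did not overlap with Tsk2 lower and in 1 with Tsk2 higher, against the 10.2% and 9.81% of all genes given above. Among the 7161 genes without repeated values, as 31 of the 39 are, such genes were commoner, 1124 lower and 942 higher. The RNA-binding antiviral proteins Ifit1 and Ifit2 differed by -0.86 ± 0.09 and -0.87 ± 0.12 (SE; adjusted p = 0.00733 and 0.0216 by limma in the restricted test). Ifit1 was at 3.91, 3.80 and 3.84 in Tsk2 samples and at 4.77, 4.67 and 4.69 in WT samples, so it stayed far above the reference in both groups. The GTPases that attack pathogen vacuoles in mice, Iigp1, Igtp and Gbp3, differed by -1.02, -1.02 and -0.79, and the dynamin-like antiviral GTPase Mx2 by -0.72. Phf11d was at 2.66, 2.62 and 2.63 against 3.55, 3.48 and 3.5. Ifi204, a DNA sensor of the mouse p200 family, was at 1.55, 1.52 and 1.61 against 2.33, 2.25 and 2.16.

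More genes known to be induced by interferon fell in the restricted test without being members of the list. They were Ifi44l at -1.65, the guanylate-binding proteins Gbp5 and Gbp6 at -1.18 and -0.72, the GTPase Tgtp1 at -0.90, Phf11a at -0.84, the p200 family members Ifi211 and Ifi209 at -0.80 and -0.76, Oas1f and Oas1b at -0.67 and -0.65, Nmi at -0.66 and Slfn2 at -0.59. Many of these belong to families of near-identical genes, and signal shared between relatives was not tested. Other listed genes did not pass. The interferon-induced protease Usp18 differed by -0.62 (adjusted p = 0.0682 by limma in the restricted test) and Oas1a by -0.48 (0.0678). Mx1, with 66.7% of its values repeated, differed by -1.13 (adjusted p = 0.13 by limma over all genes). Ifi27 lay higher with the Tsk2 allele, at -0.09, -0.18 and -0.27 against -0.51, -0.51 and -0.47, a difference of 0.31 (adjusted p = 0.348 by limma over all genes).

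The interferon gene itself also fell in the restricted test. Ifnb1, which encodes interferon beta, was at 2.03, 2.11 and 2.13 in Tsk2 samples and 3.11, 3.59 and 3.70 in WT samples. The groups did not overlap, WT 1 was the lowest WT sample, and the difference was -1.37 ± 0.17 (SE; adjusted p = 0.0184 by limma in the restricted test and 0.13 over all genes). Ifnb1 thus lay more than 2 log2 units above the reference with either allele. Rnf135, a ubiquitin ligase that acts on the RNA sensor RIG-I, fell in the same test by 0.48, and Daxx, an interferon-induced partner of PML bodies, by 0.52.

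Listed genes of antigen presentation lay mostly lower with the Tsk2 allele. Most act with class I molecules, Cd74, H2-Aa, H2-Ab1, H2-Eb1 and Ciita with class II, and the counts cover both. All 22 listed genes were measured, 18 lay lower, and the median difference was -0.42. In 13 the groups did not overlap with Tsk2 lower and in 1 with Tsk2 higher, beside 10.2% and 9.81% of all genes. By limma over all genes 0 members passed, and 12 had an unadjusted p under 0.05, beside 2186 of all 19532 genes. In the restricted test 2 of 11 fell, beside 0.838% of all genes tested there. These were H2-D1, a classical class I heavy chain, at -0.13, 0.37 and 0.42 against 1.04, 1.18 and 1.15 (difference -0.90 ± 0.17, SE; adjusted p = 0.0466 by limma), and Psmb9, a catalytic subunit of the immunoproteasome, at -1.29, -1.56 and -1.41 against -0.78, -0.69 and -0.73. Outside the list, the class I gene H2-Q8 fell by 1.17 in the restricted test. H2-K1, the other classical heavy chain, was at 0.04, 0.57 and 0.57 against 1.12, 1.33 and 1.24, a difference of -0.84 that did not pass (adjusted p = 0.0585 by limma in the restricted test). The immunoproteasome subunits Psmb10 and Psmb8 differed by -0.37 and -0.42 and the proteasome activator Psme1 by -0.41 without passing. Class I genes of this family are near-identical, so their probes may read more than 1 gene.

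Inflammatory genes did not move as a block. Acod1, the enzyme that makes itaconate in activated macrophages, had the largest fall of the restricted test, at -3.72, -3.95 and -3.87 in Tsk2 samples and -1.30, -0.49 and -0.42 in WT samples. It was 8.63-fold lower, both of its probes gave a difference beyond -3, and WT 1 lay between the other WT samples and the Tsk2 samples (adjusted p = 0.0484 by limma over all genes). Il33, an alarmin of the interleukin-1 family, was at -2.11, -2.10 and -1.88 against -0.20, 0.24 and 0.39, a difference of -2.17 ± 0.18 (SE; adjusted p = 0.0484 by limma over all genes). Ccl5, a chemokine for T cells and monocytes, was at -0.14, -0.16 and 0.03 against 1.36, 1.71 and 1.71 with the same adjusted p, and its 2 probes gave -1.61 and -1.76. These 3 genes stayed apart by more than 1 log2 unit in every pair of samples.

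Most other chemokines and cytokines did not pass. Cxcl10 is counted with the interferon genes and is not in the chemokine list. Of the 25 measured chemokines of that list 14 lay lower and 11 higher, with a median difference of -0.06. Of its 19 members without repeated values, Ccl5 and Cxcl14 alone passed in the restricted test. Over all genes tested there 0.838% fell and 0.684% rose. Cxcl14, a chemokine of resting skin, rose, at 3.38, 3.27 and 3.24 against 2.83, 2.48 and 2.56. Ccl20 and Cxcl5 differed by 1.05 and 0.68 in the direction opposite to Ccl5 without passing (adjusted p = 0.367 and 0.349 by limma over all genes). Of 25 cytokines and receptors of the interleukin-1, interleukin-6 and tumour necrosis factor families 13 lay higher and 12 lower, with a median of 0.02. Csf2, the granulocyte-macrophage growth factor, differed by -0.55 (adjusted p = 0.0551 by limma in the restricted test). Among 28 innate immune sensors and NF-kappaB feedback genes the median was 0.03. Acod1 and the lipopolysaccharide co-receptor Cd14 (-0.56) fell in the restricted test, while the soluble pattern receptor Ptx3 rose by 1.12 and the peptidoglycan sensor Nod1 by 0.57.

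The 250-base windows were also searched for NF-kappaB sites, read by the factors that induce Ifnb1 and many chemokines, and the 2 stretches are shown because both genes fell. The letters were held by 10 of the 48 windows of genes that fell (20.8%), 4 of the 39 of genes that rose (10.3%), 584 of 5749 (10.2%) without repeated values and 2225 of 27025 (8.23%) of all. They were not particular to genes that fell. Of the listed contractile genes, which lay mostly higher, 6 of 22 windows (27.3%) held them, and so did that of Myl9, which rose. The stretches lie at chr5:92348944-92349033 and chr4:88522861-88522950, both on the minus strand, with the matches in capitals. The capitals in Cxcl10 cover matches that overlap each other, and Cxcl10 holds a further match 150 to 159 bases before its start.
Cxcl10: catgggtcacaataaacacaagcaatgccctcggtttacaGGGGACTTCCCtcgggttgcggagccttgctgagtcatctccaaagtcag
Ifnb1: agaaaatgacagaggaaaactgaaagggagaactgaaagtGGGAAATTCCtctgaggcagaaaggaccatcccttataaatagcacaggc

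Matrix-degrading enzymes and their inhibitors split. The collagenase Mmp13 fell in the restricted test, at 1.57, 1.75 and 1.5 in Tsk2 samples and 2.77, 3.51 and 3.30 in WT samples, a difference of -1.58 ± 0.21 (SE; adjusted p = 0.0203 by limma). Mmp3, stromelysin, which activates collagenases, was at 1.83, 2.09 and 1.98 against 2.74, 3.58 and 3.49, a difference of -1.30 ± 0.24 (SE; adjusted p = 0.0466). WT 1 was the lowest WT sample for both enzymes. Timp3, a matrix-bound inhibitor of such enzymes, rose, at 0.60, -0.07 and -0.20 against -1.18, -1.58 and -1.24 (difference 1.45 ± 0.24, SE; adjusted p = 0.0370). Over the 33 measured proteases and inhibitors 18 lay higher and 15 lower, with a median of 0.09 that turned to -0.10 over genes without repeated values. The aggrecanase Adamts5 was at 0.90, 0.49 and 0.56 against -0.43, -1.19 and -0.97, a difference of 1.51 with 16.7% of its values repeated (adjusted p = 0.178 by limma over all genes). The urokinase Plau differed by -0.64 without passing.

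Both of these metalloprotease promoters hold the letters of an AP-1 site, TGANTCA, close to their start, which is why they are shown. The letters were held by 8 of the 48 windows of genes that fell (16.7%), 2 of the 39 of genes that rose (5.13%), 323 of 5749 (5.62%) without repeated values and 2113 of 27025 (7.82%) of all. The stretches lie on the plus strand at chr9:7272439-7272513 and chr9:7445736-7445821, 29 to 35 and 40 to 46 bases before the start.
Mmp13: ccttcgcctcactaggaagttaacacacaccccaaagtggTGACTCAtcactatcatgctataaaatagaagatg
Mmp3: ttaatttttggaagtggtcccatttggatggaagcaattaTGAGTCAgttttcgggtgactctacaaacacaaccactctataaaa

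A group of cysteine protease inhibitors of the stefin A family fell in the restricted test. Cstdc5 was at 1.23, 1.37 and 1.44 against 2.50, 3.10 and 3.24, Cstdc4 at 2.50, 1.91 and 2.17 against 3.40, 3.57 and 3.62, and Stfa3 at 1.77, 1.31 and 1.58 against 2.61, 2.84 and 2.46. The differences were -1.6, -1.34 and -1.08. These mouse genes are close copies of each other, so they may not be 3 separate measurements. The calprotectin subunit S100a8 fell by 0.90, the serpins Serpinb9e and Serpinb2 by 0.65 and 0.47, the growth factor Bmp2 by 1.18, and Rgs2, a brake on G protein signalling, by 1.06.

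**Figure D3:**
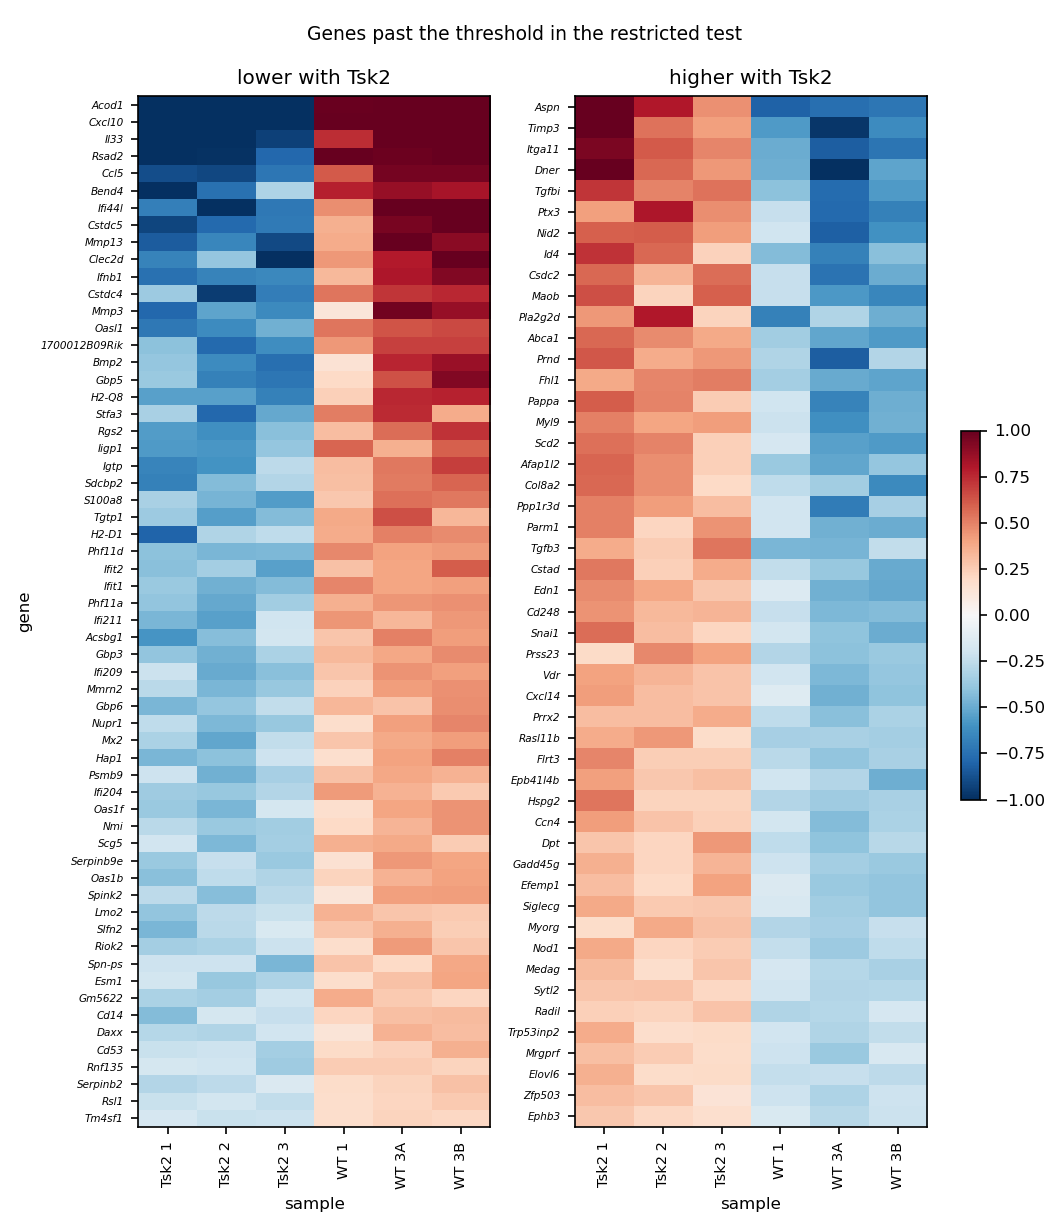
Each row is a gene that passed the threshold in the restricted test and each column a sample, with the 60 genes that fell on the left and the 49 that rose on the right. Colour is the log2 ratio minus the gene's mean over the 6 samples, with the colour scale ending at 1, and the WT 1 column is paler than WT 3A and WT 3B in most rows.

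Several genes of the matrix and its receptors rose in the restricted test. Without Tsk2 2, WT 3A or WT 3B, 0 genes passed it as higher, a limit on every rise in that test given here. Asporin (Aspn), a small leucine-rich proteoglycan that binds collagen and TGF-beta, had the largest rise. It was at 0.04, -0.19 and -0.54 in Tsk2 samples and -1.80, -1.75 and -1.71 in WT samples, a difference of 1.52 ± 0.16 (SE; adjusted p = 0.0112 by limma in the restricted test and 0.0982 over all genes). Itga11, the alpha chain of a fibrillar collagen receptor of fibroblasts, was at 3.60, 3.27 and 3.15 against 2.16, 1.83 and 1.93, a difference of 1.37 ± 0.16 (SE; adjusted p = 0.0134). Tgfbi, a matrix protein induced by TGF-beta, was at 1.10, 0.88 and 0.93 against -0.03, -0.38 and -0.18. In these 3 genes every Tsk2 sample lay at least 0.9 above every WT sample. Fibroblast markers, none of which passed in either test, lay higher as well, in 13 of 15, and their part in these differences was not tested. Further matrix genes that rose were the basement membrane proteins nidogen 2 (Nid2, 1.08) and perlecan (Hspg2, 0.65), the type VIII collagen chain Col8a2 (0.83), the matricellular protein Ccn4 (0.62), dermatopontin (Dpt, 0.62) and fibulin 3 (Efemp1, 0.60).

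By list, matricellular proteins had 20 of 25 measured members higher and a median difference of 0.33. In the restricted test 3 of 16 rose, Tgfbi, Ccn4 and Dpt, beside 0.684% of all genes tested there. Proteoglycans had 20 of 28 higher and a median of 0.25. In the restricted test 2 of their 16 members without repeated values rose, Aspn and Hspg2, beside the same 0.684%. Basement membrane genes had 13 of 17 higher and a median of 0.29, but the laminin chain Lamb3 differed by -1.56 without passing (adjusted p = 0.302 by limma over all genes). Of 22 integrins and other collagen receptors 14 lay lower. Itga11 alone passed in the restricted test, of 10 without repeated values, beside the same 0.684%. Fibrillar collagens had 10 of 11 higher and a median of 0.21, yet only 1 of the 11 had no repeated value. By limma 0 passed, and 3 had an unadjusted p under 0.05, beside 2186 of all 19532 genes. Collagen processing and crosslinking genes had a median of 0.11 and elastic fibre genes one of 0.04. The matricellular protein Ccn5, with 16.7% of its values repeated, was at 0.79, 0.91 and 0.92 against -0.04, -0.67 and -0.56 and did not pass (adjusted p = 0.157 by limma over all genes). Prg4, lubricin, with 33.3% repeated, differed by 1.12 without passing (adjusted p = 0.13).

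Of 21 measured TGF-beta response genes 13 lay higher, with a median difference of 0.11. In the restricted test 4 of the 16 without repeated values rose, beside 0.684% of all genes tested there. These were Timp3, Tgfbi, the vasoconstrictor peptide endothelin 1 (Edn1) and the transcription repressor Snai1. Edn1 was at 1.30, 1.22 and 1.09 against 0.69, 0.34 and 0.32, and Snai1 at 1.61, 1.36 and 1.26 against 0.86, 0.65 and 0.55. The groups did not overlap in either gene. Ccn2, connective tissue growth factor, differed by 0.43 without passing (adjusted p = 0.0551 by limma in the restricted test). Among the 21 TGF-beta ligands, receptors and mediators, with a median of 0.05, the ligand Tgfb3 rose. It was at 0.05, -0.07 and 0.21 against -0.78, -0.79 and -0.57, a difference of 0.78 ± 0.12 (SE; adjusted p = 0.0254 by limma in the restricted test).

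In the related BMP pathway the ligand Bmp2 fell and Id4, an inhibitor of basic helix-loop-helix factors, rose in the restricted test. Bmp2 was at 0.89, 0.65 and 0.52 against 1.42, 2.04 and 2.14, and Id4 at 4.78, 4.63 and 4.29 against 3.63, 3.38 and 3.64. Id1 and Id2, which BMP signals induce, differed by 0.42 and 0.47 without passing (adjusted p = 0.0625 and 0.0778 by limma in the restricted test). The ligand gene and the Id genes therefore lay on opposite sides. Over the 28 measured genes of the pathway the median was 0.12.

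Contractile genes of smooth muscle and myofibroblasts lay higher with the Tsk2 allele. Of 26 genes 22 lay higher, with a median difference of 0.37. In 17 the groups did not overlap with Tsk2 higher and in 2 with Tsk2 lower, beside 9.81% and 10.2% of all genes. Only 1 of the 15 members without repeated values rose in the restricted test, beside 0.684% of all genes tested there. This was Myl9, the regulatory light chain of smooth muscle myosin, at 2.33, 2.22 and 2.25 against 1.61, 1.21 and 1.35 (difference 0.88 ± 0.13, SE; adjusted p = 0.0250 by limma). Smooth muscle actin (Acta2) was at 1.91, 1.35 and 1.46 against 0.86, 0.42 and 0.73, and its 5 probes gave differences of 1.25, 1.14, 0.92, 0.49 and 0.74. The third of these held repeated values on 5 of 6 arrays, and the gene did not pass (adjusted p = 0.267 by limma over all genes). Calponin 1 (Cnn1) was at 4.21 in each Tsk2 sample and at 3.86, 3.55 and 3.61 in the WT samples, with an adjusted p of 0.0536 by limma in the restricted test. Among targets of serum response factor and YAP, which had a median of 0.16 over 20 genes, the LIM protein Fhl1 rose, at 1.76, 1.87 and 1.90 against 1.05, 0.88 and 0.85. The actins of cardiac and skeletal muscle, Actc1 and Acta1, differed by 0.81 and 0.63 without passing (adjusted p = 0.0650 and 0.0670 by limma in the restricted test).

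Serum response factor reads the CArG box, and the promoters of both genes that rose here hold one, so they are shown. CArG boxes were found in 0 of the 48 windows of genes that fell and 2 of the 39 of genes that rose (5.13%), these 2. They were found in 87 of 5749 (1.51%) without repeated values and 439 of 27025 (1.62%) of all. Fhl1 has more than 1 start, and the box was found before only 1 of them. Of the 22 contractile genes with a window 5 (22.7%) held one. The stretches lie on the plus strand at chr2:156775263-156775352 and chrX:56779541-56779630, with the box 152 to 161 and 93 to 102 bases before the start.
Myl9: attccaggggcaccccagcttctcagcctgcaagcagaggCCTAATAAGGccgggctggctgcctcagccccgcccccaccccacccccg
Fhl1: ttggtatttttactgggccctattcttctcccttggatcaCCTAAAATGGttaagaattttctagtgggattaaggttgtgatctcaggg

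Genes of other functions that rose in the restricted test included signalling and metabolic genes. Dner, a transmembrane protein that binds Notch, was at 3.36, 2.93 and 2.79 against 1.86, 1.36 and 1.83, a difference of 1.34. Pappa, a protease that frees insulin-like growth factors from a binding protein, was at 2.40, 2.29 and 2.05 against 1.6, 1.13 and 1.31. In the list of insulin-like growth factor genes 16 of 18 lay higher, with a median of 0.15. Pappa alone rose in the restricted test, of 10 without repeated values, beside 0.684% of all genes tested there. Abca1, the cholesterol exporter, was at -0.17, -0.27 and -0.37 against -1.09, -1.27 and -1.31, and the fatty acid enzymes Scd2 and Elovl6 rose by 0.85 and 0.48. Sterol synthesis genes lay higher in 19 of 20 and had a median of 0.22. In 10 the groups did not overlap with Tsk2 higher, beside 9.81% of all genes. However, 0 passed in either test by limma, and 6 had an unadjusted p under 0.05, beside 2186 of all 19532 genes. The homeobox gene Prrx2 rose by 0.66, the vitamin D receptor Vdr by 0.68, the monoamine oxidase Maob by 0.97 and the stromal surface protein Cd248, endosialin, by 0.74.

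Other genes that fell in the restricted test included Clec2d, a ligand of an inhibitory receptor of natural killer cells, at -0.02, 0.26 and -0.57 against 1.08, 1.44 and 1.68. The syntenin Sdcbp2 was at 1.57, 1.81 and 1.95 against 2.55, 2.77 and 2.83, and the stress-induced chromatin protein Nupr1 at -0.54, -0.74 and -0.66 against -0.10, 0.12 and 0.21. In each of these genes every Tsk2 sample lay below every WT sample. The prion-like protein gene Prnd rose, at 3.48, 3.23 and 3.29 against 2.56, 2.03 and 2.57, as did the serine protease Prss23, at 2.41, 2.69 and 2.61 against 1.92, 1.80 and 1.84, and the secreted phospholipase Pla2g2d, at 1.75, 2.12 and 1.54 against 0.64, 1.02 and 0.83. The adjusted p of these 6 genes lay between 0.025 and 0.0473 by limma in the restricted test, and none passed over all genes. Sdcbp2, Nupr1, Prnd and Pla2g2d fell outside the rule for named genes and were chosen as examples after their values were seen.

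**Figure D4:**
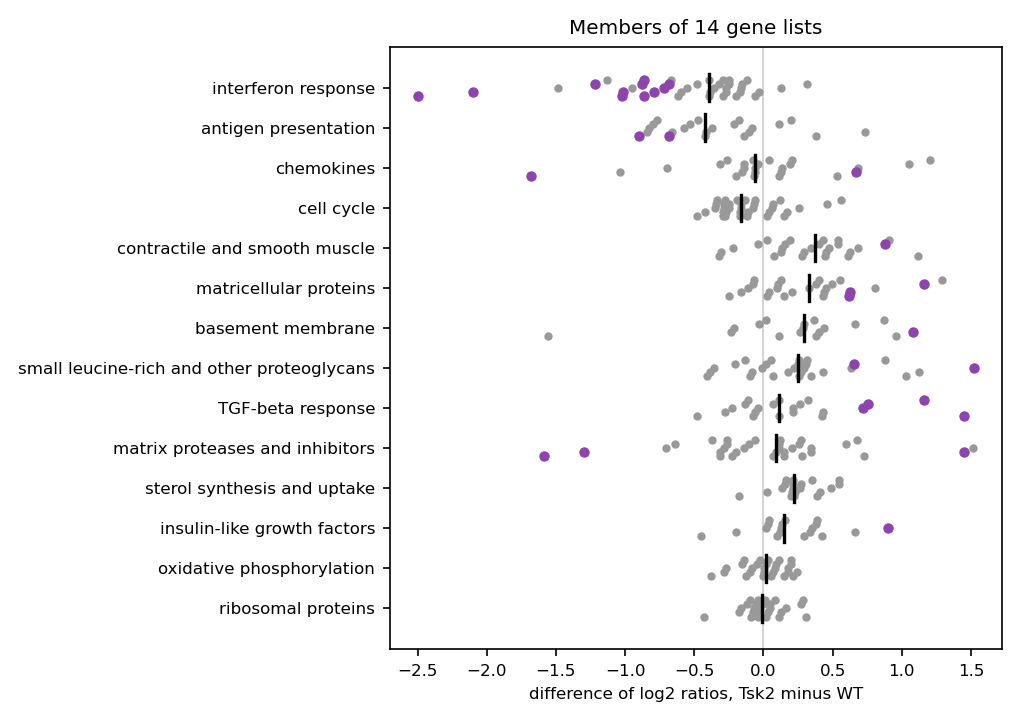
Difference of log2 ratios, Tsk2 minus WT (horizontal axis), for every measured member of 14 gene lists, 1 point per gene, with members that passed the restricted test in purple and the list median as a bar. Interferon response and antigen presentation genes lie mostly below 0, contractile and matricellular genes mostly above it, and oxidative phosphorylation and ribosomal genes around it.

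The 3 genes that rose over all genes all had repeated values. Aoc3, vascular adhesion protein 1, was at 0.79, 1.04 and 0.88 in Tsk2 samples and -0.45, -0.38 and -0.40 in WT samples, with 33.3% of its values repeated (difference 1.31 ± 0.10, SE; adjusted p = 0.0484 by limma). The homeobox gene Dlx1 was listed at exactly 0 in all 3 Tsk2 samples and at -4.50, -3.86 and -3.51 in WT samples. Ott, an X-linked gene, has 2 probes, and one of them was listed at exactly 0 in all Tsk2 samples and between -5.64 and -5.42 in WT samples. The other Ott probe differed by 0.27. No fold is given for Dlx1 or Ott, since an exact 0 may stand for a value that could not be estimated.

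Housekeeping groups lay near 0. The median difference was 0.02 over 27 oxidative phosphorylation genes, -0.01 over 26 glycolysis and hypoxia genes, -0.01 over 26 ribosomal protein genes and 0.04 over 27 genes of the unfolded protein response and protein folding, and 0 of these genes passed in either test by limma. At an unadjusted p under 0.05 there were 2, 1, 0 and 7 of them, beside 2186 of all 19532 genes. Cell cycle genes lay lower in 25 of 35, with a median of -0.16. The replication factors Mcm6 and Pcna differed by -0.48 and -0.29 without passing, and Mcm4 by 0.56. For Wnt, homeobox and Hox genes the medians were 0.21, 0.17 and 0.14. These lists held 15, 13 and 18 genes without repeated values, and Prrx2 was the only one that passed in the restricted test. Of all genes tested there 0.684% rose. The medians of the 28 lists not described so far, among them complement, prostaglandin synthesis, Notch, fibroblast growth factors, immediate early genes, heat shock, NRF2 targets, adipocyte genes, the circadian clock and imprinted genes, lay between -0.23 (hyaluronan genes) and 0.20 (collagens other than fibrillar ones). Neither end was stable, since over genes without repeated values the hyaluronan median was 0.11, and without Tsk2 2 that of these collagens was 0.03. Of their members Abca1, Scd2, Col8a2, Edn1, Ephb3 and the stress-induced gene Gadd45g rose in the restricted test, and 0 fell, while no list held more than 9 members at an unadjusted p under 0.05 by limma.

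The labelled cell type was checked by its markers. Of 15 measured fibroblast markers 13 lay higher and 2 lower with Tsk2, with a median difference of 0.18. In 6 the groups did not overlap with Tsk2 higher and in 1 with Tsk2 lower, beside 9.81% and 10.2% of all genes. By limma 0 passed in either test, and 5 had an unadjusted p under 0.05, beside 2186 of all 19532 genes. Col1a1 differed by 0.83, Vim by 0.41 and Pdgfrb by 0.39, and the 2 lower markers were Lum and Twist2. Col1a1, Col1a2, Dcn, Lum, Fn1 and Loxl1 are also members of the matrix lists. In level, the highest were Twist2 at 4.08 ± 0.06 and 4.26 ± 0.15 (SD, n = 3 each, Tsk2 and WT), Thy1 at 2.78 ± 0.06 and 2.61 ± 0.02, and Lum at 2.19 ± 0.15 and 2.58 ± 0.19. Pdgfra, at 0.04 and -0.01, and Fn1, at -0.47 and -0.49, lay near or below the reference. Single markers of other cell types were also high: S100b (Schwann cell) at 4.40 and 4.16, Ivl (keratinocyte) at 3.36 and 3.40, and Fabp4 (adipocyte) at 3.24 and 3.23. The other members of those 3 lists lay lower. The median over 15 measured fibroblast markers was between 0.92 and 1.05 in Tsk2 samples and between 0.73 and 1.03 in WT samples. Macrophage markers ranged from far below the reference to near it. Ptprc was at -3.13 and -3.03, Tyrobp at -4.02 and -4.01 and Fcer1g at -3.67 and -3.58 in Tsk2 and WT samples, while C1qb, with no repeated value, was at 0.26 and 0.05. C1qa, at -0.01 and 0.38, Mrc1, at -0.68 and -0.04, and Itgam, at -0.76 and -0.64, also lay near the reference, with 100%, 83.3% and 58.3% of their values repeated. Of 15 measured macrophage markers 12 lay lower and 3 higher with Tsk2. Their median was between -2.93 and -1.79 in Tsk2 samples and between -2.82 and -2.53 in WT samples, so the groups overlapped. Cd14 alone, of 6 markers of this list without repeated values, fell in the restricted test, beside 0.838% of all genes tested there. It was at -3.28, -3.03 and -3.08 against -2.64, -2.55 and -2.53. The part of any such cells in the falls of Acod1 and Ccl5 was not tested. Log ratios have no true 0, so the markers show levels against the reference and not absence. Of the T cell, B cell, mast cell, endothelial, keratinocyte, melanocyte, skeletal muscle, adipocyte, Schwann cell and pericyte markers, 0 passed in either test by limma, and at an unadjusted p under 0.05 no list held more than the 4 of 12 keratinocyte markers.

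The genes of the restricted test were also read in skin of 4-week-old Tsk2 and WT mice. In skin 568 of 19532 genes passed (2.91%). Of the 60 genes that fell in fibroblasts 2 passed in skin, 1 of them lower, and 23 of 60 had the same sign, with a median skin difference of 0.09. Of the 49 that rose 9 passed in skin, 6 of them higher, and 32 of 49 had the same sign, with a median of 0.25, beside 53.9% higher and a median of 0.04 over the 7161 genes. The 6 genes that were higher in both systems were Aspn (1.52 in fibroblasts, 2.11 in skin), Fhl1 (0.92 and 1.87), Ptx3 (1.12 and 1.5), Cstad (0.76 and 1.35), Tgfb3 (0.78 and 1.02) and Tgfbi (1.16 and 1.0). The smallest adjusted p among these 6 in skin was 0.0229 and the largest 0.0436 by limma.

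The difference between the systems was tested as a contrast over all 14 arrays, and 1.40% of all genes passed it. The genes below were chosen by their fibroblast difference, which is also 1 side of this contrast, so how many of them passed is not read as a result. Il33 differed by -2.17 in fibroblasts and by 1.11 in skin, a difference between systems of -3.28 (adjusted p = 0.0110 by limma). Acod1 fell by 3.11 in fibroblasts and differed by 0.02 in skin, and Ccl5 by -1.68 and 0.41. The class I genes H2-D1 and H2-Q8 differed by -0.90 and -1.17 in fibroblasts and by 0.78 and 0.65 in skin, with adjusted p of 0.0274 and 0.0218 for the difference by limma. Of the genes that rose, Id4 differed by 1.02 and -1.11, Edn1 by 0.76 and -1.38, Itga11 by 1.37 and -0.22 and Timp3 by 1.45 and -0.20, and all 4 passed the test of the difference. Cxcl10, at -2.50 and -0.67, and Rsad2, at -2.10 and 0.04, did not pass it (adjusted p = 0.12 and 0.107). The kits used to extract RNA differed between cells and skin, so tissue and extraction cannot be told apart.

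**Figure D5:**
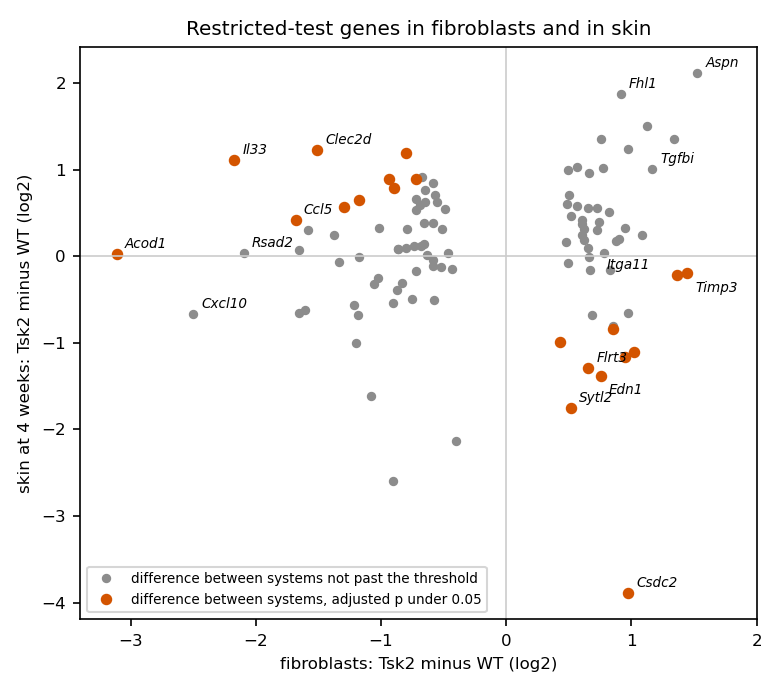
Difference between Tsk2 and WT in fibroblasts (horizontal axis, log2) and in skin at 4 weeks (vertical axis, log2) for the 109 genes that passed the restricted test, 1 point per gene. Orange points are genes whose difference between the systems passed the threshold. Il33, Ccl5 and Acod1 were lower with Tsk2 in fibroblasts and not in skin, and Aspn, Fhl1 and Tgfbi were higher in both.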

How the data were processed

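Per the labels, sample RNA carried Cy5 and the common mouse reference RNA carried Cy3 on every array. The deposited values are log ratios, read as log2 of sample over reference from the dyes and from their range of -7.67 to 7.31 on the 6 arrays. The sources used here do not give the log base or the authors' background correction and normalization, and array medians were 0.00. The platform annotation gave 1 symbol for 32664 of 41174 probes, several for 45 and no entry for 8465. A gene's value was the mean of its probes, with 11021 genes on 1 probe. Symbols of 19410 genes were found in RefSeq (GRCm38.p6), and 0 changed. Columns of no sample numbered 0.

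The 3 Tsk2 and 3 WT transfections were compared by limma 3.58.1 (R 4.3.3; lmFit and eBayes, two-sided, Benjamini-Hochberg threshold 0.05, no covariates), and the contrast between systems on all 14 arrays, with all 4 labelled mice per genotype. The restricted test is an alternative of this fit and not its main setting. Named were all called genes, Col3a1, up to 4 genes of lowest p in each of 56 lists and, among genes without repeated values, overlap or provisional names and with a difference of at least 0.58, the 15 of lowest p and 12 largest per direction. Other genes of the restricted test were named with their values known. The samples compared, the gene lists and the tests were chosen with earlier results of these data known. Deviations of same-numbered transfections correlated at no more than 0.0194 over genes. Whether same-numbered samples were handled together is not known, and this correlation cannot settle it. The main test used no pairing. Promoter windows and motif searches were added after the calls were known. The letters of the Smad box, CAGACA, were searched for as well, and their shares were alike. They were held by 8 of 48 windows of genes that fell (16.7%) and 6 of 39 of genes that rose (15.4%). Of the genes without repeated values 940 of 5749 (16.4%) held them, and of all genes 5223 of 27025 (19.3%).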

Additional observations from a re-analysis of the deposited data

Results flagged for a closer look

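For 4 of the 10 genes called over all genes the Tsk2 effect in fibroblasts differed from that in skin by limma's contrast over 14 arrays. The 10 genes were called on the fibroblast difference, which is also 1 side of this contrast. This count of 4 is therefore not read as a result. Over all genes 1.40% passed the contrast, and its 273 calls fell to between 6 and 61 without 1 fibroblast sample. The effect in fibroblasts minus that in skin was -3.28 for Il33 (adjusted p = 0.0110), -3.13 for Acod1 (0.0148), -2.10 for Ccl5 (0.0110) and 5.36 for Dlx1 (0.0121). The Dlx1 value rests on exact zeros in the 3 Tsk2 fibroblast samples.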

How the results depend on the processing

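Of 19532 genes, 10 were called, and leaving out 1 sample gave 0 to 3. The count was 0 with WT 3A and 3B as 1 sample or with a replicate block of the transfection numbers (1478 and 1812 genes at an unadjusted p under 0.05 by limma), 1 with exact zeros as missing, 3 with quantile normalization, 5 with the most variable probe and 6 with each probe on its own. It was 16 without probes repeated on all 6 arrays or with array weights, and 109 in the restricted test. The restricted count ranged from 6 to 160 with 1 sample left out, and was 6 with 3A and 3B as 1 sample, 3 with the replicate block (Cxcl10, Ccl5 and Il33), 52 with the most variable probe and 903 with array weights. These settings of the restricted test were chosen after seeing the data. The count for the difference between systems was 273, with 6 to 61 without 1 fibroblast sample and 1478 with array weights. Over 3377 alternative values of the 244 named genes, 0 reversed the direction of a gene that had passed. In 394 of them such a gene no longer passed, and in 127 a gene passed that had not. Changes of direction in genes that had not passed are not covered by this 0. Of 56 list medians 37 kept their sign over 10 settings, while 19 did not. The widest of these were hyaluronan genes (-0.28 to 0.11), fibroblast growth factors (-0.21 to 0.08), retinoid pathway genes (-0.05 to 0.15), imprinted genes (-0.07 to 0.13), matrix proteases (-0.10 to 0.09) and prostaglandin genes (-0.14 to 0.04). Spot brightness was not used here, so what signal over background limits was not weighed.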
